A study of Arabidopsis thaliana with 24 samples.

Results

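Cytochrome P450 genes were followed in Arabidopsis thaliana roots under salt. They were chosen by name: a gene was included where its current symbol is CYP followed by digits, letters and digits, which leaves out the cyclophilins that share the prefix. The rule found 22 genes among the 13356 genes that the array's gene table names. The CYP71B subfamily makes up 18 of them, and CYP51G2, CYP78A9, CYP79A2 and CYP84A4 are the other 4. Each of the 22 is read by 1 probe set, a group of short probes on the array. RefSeq gives 225 genes a symbol of this form, so most P450 genes of the plant were not analysed here. The array's gene table gives no symbol to 8730 of the 22746 probe sets tested, and P450 genes read by those were not looked for. A further 2 probe sets that match more than 1 gene, the pair CYP71B19 and CYP71B20 and the pair CYP79C2 and AT1G58265, were left out. CYP51G2 and CYP71B27 are annotated as transcribed pseudogenes.

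P450 enzymes are heme-thiolate monooxygenases. In plants most of them sit on the endoplasmic reticulum, take electrons from NADPH through a P450 reductase and insert an oxygen atom into small molecules such as sterols, hormones, phenylpropanoids and defence compounds. Their names give the family as a number, the subfamily as letters and the gene as a number, and genes of a subfamily often stand side by side on a chromosome, as many CYP71B genes do. In roots, P450 enzymes take part in suberin, hormone and defence metabolism.

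Transcripts were measured on 24 Affymetrix ATH1 arrays, 3 for each of 8 groups. Col-0 wild type and plants labelled as the bzip1/bzip53 knockout, a double mutant of bZIP transcription factors, were grown in hydroponic culture with 8 h of light and 16 h of dark. Roots were taken without added salt (control) and after 1, 3 or 6 h in 150 mM NaCl. The plants are given as 6 weeks old, while the tissue label reads seedling roots. Harvest of the salt-treated roots came 1 h before the light ended, and for the controls no time is stated. The arrays of a group are called biological replicates, but no label says whether they came from separate plants or cultures. The p-values therefore rest on array-to-array spread, which may be technical.

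The mutant label was checked first with BZIP53 (AT3G62420), the only targeted gene that the gene table names. BZIP1 was therefore not checked. In the mutant the group means of BZIP53 were 8.74 to 9.19 (log2), so a signal remained, against 10.57 to 11.01 in wild type. Its level in the mutant minus that in wild type was -1.38 in the control and -2.27, -2.14 and -1.93 at 1, 3 and 6 h (log2). Every mutant array was below every wild-type array of the same condition, and the adjusted p of limma with Benjamini-Hochberg adjustment was 2.18e-07 or lower in each. Of 28 root marker genes 5 had a probe set named for them alone in the gene table (EXPA7, EXPA18, PYK10, AGL42 and AT5G17820). All 5 lay above a log2 level of 5. Of 33 leaf marker genes 6 had such a probe set. SBPASE, PRK and SPCH stayed under 5, and RCA, LHCB4.1 and LHCB4.2 lay above it. A log2 level under 5 is taken here as near background: such values give no exact size of a change.

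Under salt 6 CYP71B genes had lower levels in both genotypes and at every time: CYP71B23, CYP71B26, CYP71B28, CYP71B29, CYP71B34 and CYP71B37. Each was called lower, at an adjusted p under 0.05 in limma over 22746 probe sets, in all 6 comparisons of salt with control. Among all probe sets 8.48% were lower in all 6, and among those with a mean level of at least 5, to which all 6 genes belong, 11.1%. The median fall of the 6 genes was 2.45-fold, 1.98-fold and 1.95-fold in wild type at 1, 3 and 6 h, and 2.64-fold, 2.92-fold and 2.14-fold in the mutant, with CYP71B34 at its measured value. Those medians describe genes picked for having fallen. Most root markers fell in the same comparisons. In wild type 5, 3 and 4 of the 5 measured were called lower at 1, 3 and 6 h. In the mutant 4, 4 and 3 were. The share of all probe sets called lower was 15.4%, 23.5% and 31.1% in wild type. In the mutant it was 13.5%, 28.1% and 29.8%. The marker PYK10 was called higher at 6 h in wild type (0.34, log2) and in the mutant (0.38), calls that depended on single arrays. The part of the root markers in the P450 falls was not tested. In whole roots, fewer cells of a type and less RNA per cell cannot be told apart.

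**Figure D1:**
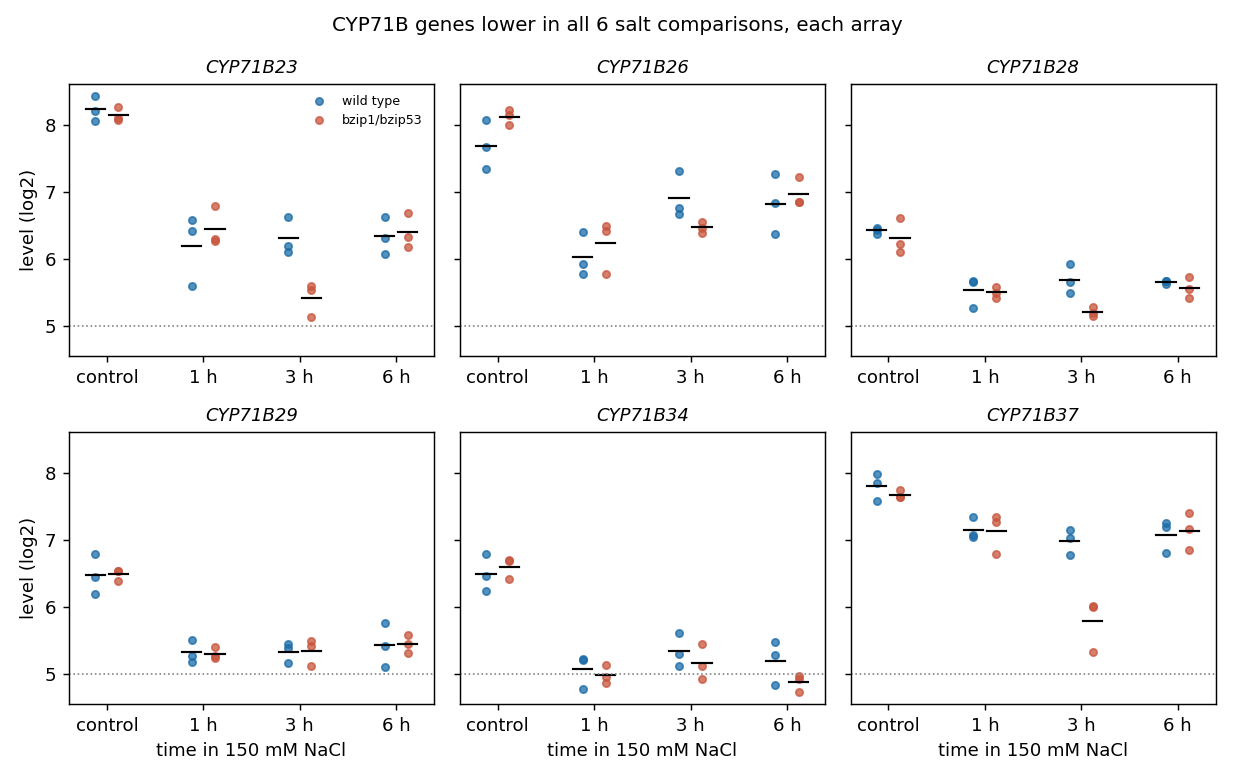
Log2 level of 6 CYP71B genes on each of the 24 arrays, against time in 150 mM NaCl, with wild type in blue and bzip1/bzip53 in red; short lines are means of 3 arrays and the dotted line marks the level of 5 taken as near background. In all 6 panels every salt array lies below every control array of the same genotype. The 6 genes were picked for being called lower in all 6 salt comparisons. In single salt comparisons 36.3% to 53% of all probe sets had no overlap. At 3 h the mutant arrays of CYP71B23, CYP71B26, CYP71B28 and CYP71B37 lie below those of wild type. Of all probe sets 36.1% had no overlap between the genotypes at 3 h, in either direction.

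CYP71B23 (AT3G26210) had the largest fall of the 22 genes at every time in wild type. Its wild-type levels were 8.06, 8.20 and 8.43 in the control, 5.60, 6.42 and 6.58 at 1 h, 6.62, 6.11 and 6.19 at 3 h, and 6.08, 6.63 and 6.31 at 6 h. Mutant levels were 8.10, 8.26 and 8.08 in the control, then 6.27, 6.79 and 6.29, 5.54, 5.59 and 5.13, and 6.33, 6.18 and 6.68. The salt arrays never reached the control arrays. The mutant arrays at 3 h, with 1 wild-type array at 1 h, were the lowest of the 24. In wild type the fall was 4.09-fold at 1 h (log2 difference -2.03, SE 0.221, adjusted p = 1.42e-06), 3.80-fold at 3 h and 3.72-fold at 6 h. The mutant fell 3.24-fold, 6.61-fold and 3.36-fold at the same times. All of these calls held without any single array of the groups compared.

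CYP71B26 (AT3G26290) fell most at 1 h in both genotypes. Wild-type levels were 8.07, 7.67 and 7.34 in the control, 5.78, 6.41 and 5.92 at 1 h, 7.31, 6.77 and 6.68 at 3 h, and 6.83, 7.26 and 6.37 at 6 h. The mutant had 8.22, 8.15 and 8.01, then 6.42, 6.50 and 5.78, 6.47, 6.39 and 6.56, and 6.85, 6.85 and 7.22. The highest wild-type 3 h array lay just under the lowest control array. The wild-type difference was -1.66 at 1 h (3.15-fold, SE 0.234, adjusted p = 2.56e-05), -0.78 at 3 h (adjusted p = 0.0127) and -0.87 at 6 h (adjusted p = 0.00399). Dropping control array 1 (-0.59), 3 h array 2 (-0.70) or 3 h array 3 (-0.66) ended the 3 h call. The mutant fell 3.71-fold, 3.15-fold and 2.22-fold.

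Wild-type CYP71B26 rose again from 1 h to 3 h, by 0.88 (log2, adjusted p = 0.0224). It was the only 1 of the 22 genes called between those times, against 8.37% of all probe sets (4.36% in the higher direction). The call ended without 1 h array 1 (0.75), 1 h array 3 (0.82) or 3 h array 1 (0.69).

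CYP71B37 (AT3G26330) stood at 7.99, 7.85 and 7.59 in the wild-type control and at 7.04, 7.34 and 7.08, 7.14, 6.77 and 7.03, and 7.25, 7.19 and 6.80 at 1, 3 and 6 h. In the mutant it stood at 7.74, 7.64 and 7.64, then at 7.35, 7.28 and 6.80, 5.34, 6.02 and 6.00, and 7.16, 6.85 and 7.40. The mutant arrays at 3 h were the lowest of all 24, and the other salt arrays lay between them and the controls. The wild-type difference was -0.66 at 1 h (log2, adjusted p = 0.0128), -0.83 at 3 h (adjusted p = 0.00143) and -0.73 at 6 h (adjusted p = 0.00276). The mutant difference was -0.54 at 1 h (adjusted p = 0.0416), -1.89 at 3 h (3.71-fold, adjusted p = 6.32e-08) and -0.54 at 6 h (adjusted p = 0.0213). The 3 h calls and the wild-type 6 h call held without any single array. The others each ended without at least 1 array. In wild type at 1 h these were control array 1 (-0.57) and 1 h array 1 (-0.60). In the mutant at 1 h they were control arrays 1, 2 and 3 (-0.50, -0.55 and -0.55) and 1 h array 3 (-0.36). In the mutant at 6 h they were control array 1 (-0.51) and 6 h array 2 (-0.39).

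CYP71B34 (AT3G26300) fell to levels close to 5, and in the mutant at 1 h and 6 h to means under 5. In wild type it read 6.79, 6.46 and 6.24 in the control and 4.78, 5.21 and 5.22, 5.62, 5.13 and 5.30, and 5.28, 5.48 and 4.83 under salt. In the mutant it read 6.42, 6.70 and 6.69, then 4.87, 5.13 and 4.96, 5.45, 5.12 and 4.93, and 4.92, 4.96 and 4.73. No salt array came up to a control array. The wild-type fall was 2.69-fold, 2.21-fold and 2.46-fold (SE 0.179 on the log2 scale, adjusted p = 7.02e-06, 3.67e-05 and 5.11e-06). In the mutant the 3 h fall was 2.71-fold, while the means at 1 h and 6 h (4.99 and 4.87) were near background, so those falls have no exact size.

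CYP71B28 (AT1G13090) and CYP71B29 (AT1G13100) are neighbours on chromosome 1. CYP71B28 was at 6.46, 6.38 and 6.44 in the wild-type control, 5.67, 5.65 and 5.27 at 1 h, 5.93, 5.50 and 5.65 at 3 h, and 5.67, 5.62 and 5.67 at 6 h. Mutant arrays gave 6.61, 6.11 and 6.22, then 5.42, 5.59 and 5.49, 5.15, 5.19 and 5.28, and 5.73, 5.55 and 5.42. Control and salt arrays did not overlap in either genotype. Wild type fell 1.86-fold, 1.66-fold and 1.71-fold (SE 0.127 on the log2 scale, adjusted p = 2.75e-05, 0.000119 and 4.24e-05), and the mutant 1.76-fold, 2.15-fold and 1.68-fold.

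For CYP71B29 the wild-type levels were 6.45, 6.79 and 6.20 in the control, 5.18, 5.51 and 5.28 at 1 h, 5.44, 5.17 and 5.39 at 3 h, and 5.10, 5.77 and 5.42 at 6 h. The mutant levels were 6.39, 6.54 and 6.54, then 5.24, 5.27 and 5.40, 5.50, 5.12 and 5.42, and 5.58, 5.31 and 5.45. The ranges of the genotypes overlapped in every condition, and salt arrays stayed below control arrays. The fall was 2.23-fold, 2.21-fold and 2.07-fold in wild type (SE 0.155 on the log2 scale, adjusted p = 1.39e-05, 7.09e-06 and 1.13e-05) and 2.27-fold, 2.21-fold and 2.06-fold in the mutant. The calls of CYP71B28, CYP71B29 and CYP71B34 held without any single array of the groups compared.

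Over all 22 genes, wild type had 1 gene higher and 7 lower at 1 h, where 24.7% of all probe sets were called (9.33% higher and 15.4% lower). At 3 h it had 1 higher and 7 lower against 35.9% (12.4% and 23.5%), and at 6 h 2 higher and 6 lower against 47.5% (16.4% and 31.1%). The mutant had 1 higher and 8 lower at 1 h against 24.1% (10.6% and 13.5%), 2 and 6 at 3 h against 45.5% (17.4% and 28.1%), and 1 and 6 at 6 h against 47.9% (18.1% and 29.8%). By 6 h, 6 of 22 lower genes in each genotype lay close to the share of lower probe sets in general. A call with a fall of at least 2-fold was made for 4, 3 and 3 genes in wild type, against 2.54%, 3.35% and 4.57% of all probe sets, and for 4, 6 and 4 in the mutant, against 2.4%, 4.73% and 4.74%. The 3 arrays of salt and of control did not overlap for 9, 9 and 8 genes in wild type, against 38.9%, 49.8% and 53% of all probe sets. In the mutant this held for 9, 8 and 8 genes, against 36.3%, 51.6% and 51.5%.

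Level divided the genes. The mean over all arrays was at least 5 for 10 of them, and of these 7, 7 and 6 were lower in wild type at 1, 3 and 6 h, and 7, 6 and 6 in the mutant, with none higher. Among all 15357 probe sets of that brightness the lower share was 19.6%, 30.1% and 41.3% in wild type, and 16.8%, 36.5% and 38.9% in the mutant. In contrast, 12 genes were near background in every group, with group means from 2.85 to 4.49. The median log2 difference over the 22 genes was -0.16, -0.13 and -0.06 in wild type, beside -0.04, -0.08 and -0.08 over all probe sets. In the mutant it was -0.10, -0.11 and -0.06, beside -0.02, -0.08 and -0.08.

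**Figure D2:**
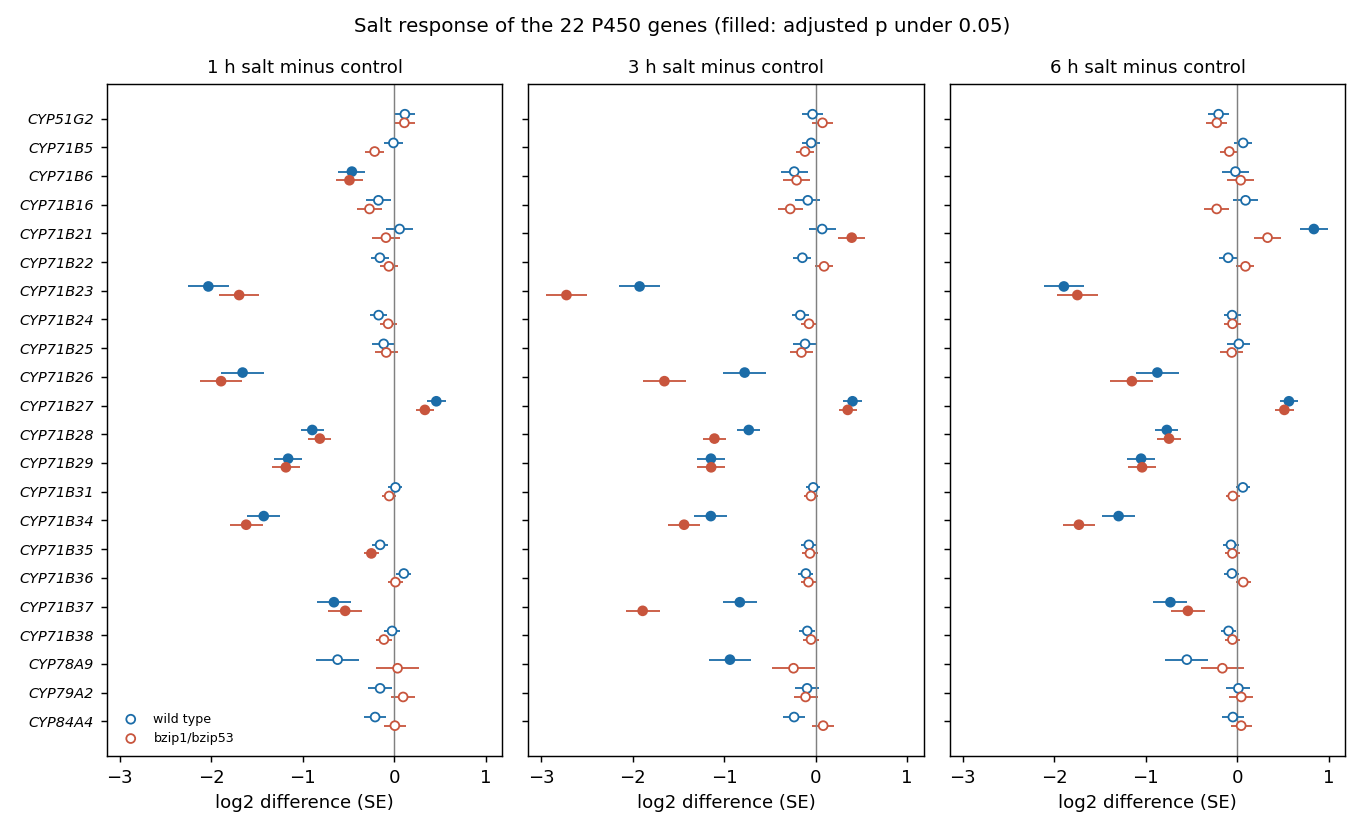
Log2 difference of salt minus control for each of the 22 P450 genes at 1, 3 and 6 h, with wild type in blue and bzip1/bzip53 in red; bars are the SE of the limma fit and filled points have an adjusted p under 0.05. CYP71B23 lies farthest to the left for wild type at each time, and most of the other genes lie close to 0.

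The CYP71B genes on chromosome 3 lie in 2 main stretches. From AT3G26150 to AT3G26230 all 10 genes carry a P450 symbol and 5 were analysed here. Of those, CYP71B23 alone was above background, and it fell. From AT3G26270 to AT3G26330 all 8 carry one and 6 were analysed. Of these, CYP71B26, CYP71B34 and CYP71B37 were above background in the controls, and all 3 fell. On chromosome 1, from AT1G13070 to AT1G13100, 3 of 4 genes were analysed. There CYP71B28 and CYP71B29 fell, while CYP71B27 was near background. CYP71B5 and CYP71B31, from a separate stretch at AT3G53280 to AT3G53300, were both near background. Cross-hybridisation between close relatives was not tested. No probe set of the 22 has a suffix that marks probes shared by several transcripts.

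**Figure D3:**
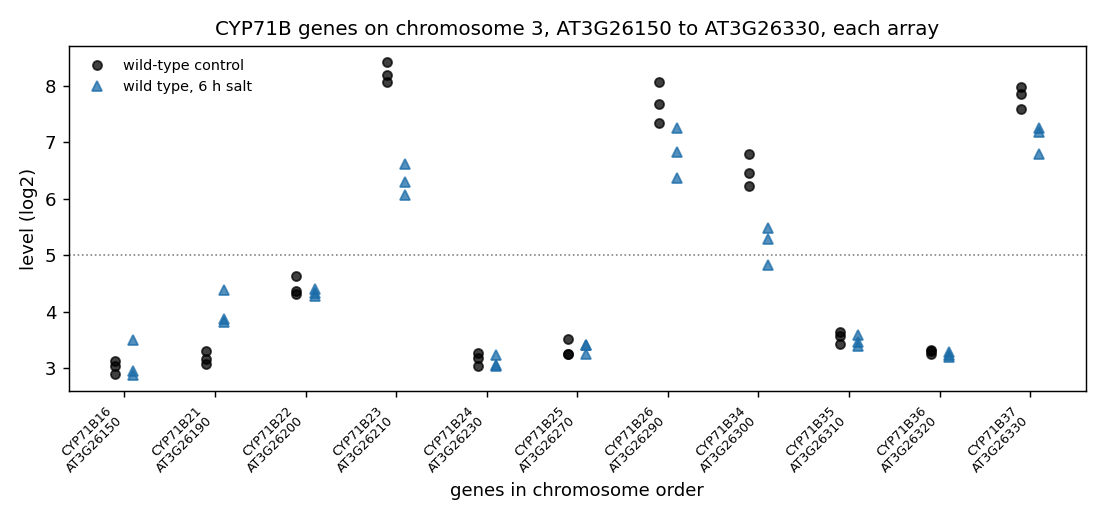
Log2 level on each wild-type array of the 11 CYP71B genes analysed between AT3G26150 and AT3G26330 in chromosome order. Black circles are the control and blue triangles 6 h of salt. The dotted line marks a level of 5. The genes whose controls lie above the line (CYP71B23, CYP71B26, CYP71B34 and CYP71B37) are lower after 6 h, and the genes under it include CYP71B21, which is higher.

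The genes with an assigned role outside these stretches were called in few comparisons. CYP71B6 (AT2G24180), which acts on indole-3-acetonitrile in tryptophan-derived defence metabolism, was at 8.63, 8.47 and 8.40 in the wild-type control, 7.84, 7.94 and 8.34 at 1 h, 8.30, 8.14 and 8.36 at 3 h, and 8.26, 8.40 and 8.79 at 6 h. Mutant arrays gave 8.79, 8.43 and 8.38, then 7.80, 8.09 and 8.25, 8.40, 8.35 and 8.22, and 8.67, 8.57 and 8.47. It was lower at 1 h, below every control array, and overlapped the control values at 6 h in both genotypes. The 1 h difference was -0.46 in wild type (1.38-fold, adjusted p = 0.0274) and -0.49 in the mutant (adjusted p = 0.0209). At 6 h it was -0.02 in wild type (95% confidence interval -0.33 to 0.29) and 0.04 in the mutant. In wild type the call was lost on dropping control array 1 (-0.40), control array 2 (-0.48), 1 h array 1 (-0.36) or 1 h array 2 (-0.41). In the mutant it was lost on dropping control array 1 (-0.36) or 1 h array 1 (-0.36).

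CYP78A9 (AT3G61880), known for its part in fruit and seed growth, read 6.54, 6.22 and 5.56 in the wild-type control and 5.29, 5.51 and 5.66, 5.07, 5.27 and 5.16, and 5.17, 5.79 and 5.70 under salt. The mutant read 5.38, 5.17 and 5.75, then 5.05, 5.95 and 5.42, 5.15, 5.23 and 5.20, and 5.35, 5.52 and 4.96. The wild-type control arrays were wide apart, and the third of them lay among the salt arrays. At 3 h the wild-type difference was -0.94 (1.92-fold, SE 0.234, adjusted p = 0.00335). At 1 h it was -0.62 (adjusted p = 0.0594) and at 6 h -0.55 (adjusted p = 0.0593). Both passed without control array 3 (-0.89 and -0.82), and the 6 h difference also without 6 h array 2 (-0.67). The mutant differences were 0.04, -0.24 and -0.16, with no call. In the control the mutant minus wild type was -0.67 (log2, not called), with means of 5.44 in the mutant and 6.10 in wild type. At 3 h the means were 5.19 in the mutant and 5.17 in wild type. The difference of responses between genotypes, 0.69 at 3 h, did not pass (adjusted p = 0.311).

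CYP84A4 (AT5G04330), a relative of ferulate 5-hydroxylase that takes part in arabidopyrone synthesis, kept group means between 5.66 and 5.89. Its differences under salt were -0.21 (95% confidence interval -0.45 to 0.04), -0.24 and -0.05 in wild type and 0.01, 0.08 and 0.04 in the mutant. Without wild-type control array 2 the 3 h difference passed (-0.34). CYP51G2 (AT2G17330), a pseudogene relative of the sterol 14-demethylase, had group means from 5.31 to 5.75. Its differences were 0.12, -0.03 and -0.20 in wild type and 0.11, 0.07 and -0.22 in the mutant, with no call.

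Of the genes near background, CYP71B27 and CYP71B21 had higher values under salt. CYP71B27 (AT1G13070), the pseudogene beside CYP71B28, was at 3.58, 3.45 and 3.43 in the wild-type control and at 3.88, 3.98 and 3.98, 4.12, 3.87 and 3.68, and 4.08, 4.17 and 3.91 under salt. The mutant arrays read 3.63, 3.50 and 3.47, then 4.04, 3.82 and 3.74, 3.91, 3.97 and 3.78, and 4.02, 4.06 and 4.07. All salt arrays lay above the control arrays, and all 6 comparisons were called, with adjusted p from 9.62e-05 to 0.0191, as for 4.57% of all probe sets in the higher direction. The mutant 1 h call (0.34) ended without control array 2 (0.32), control array 3 (0.30) or 1 h array 1 (0.25).

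CYP71B21 (AT3G26190) was at 3.30, 3.17 and 3.08 in the wild-type control, 3.28, 3.11 and 3.34 at 1 h, 3.21, 3.21 and 3.35 at 3 h, and 3.82, 3.87 and 4.38 at 6 h. Mutant values were 3.31, 3.41 and 3.49, then 3.23, 3.31 and 3.40, 3.65, 4.13 and 3.61, and 3.57, 4.04 and 3.60. Only the 6 h arrays were high in wild type, while in the mutant the 3 h and 6 h arrays were. Wild type was called higher at 6 h against control (adjusted p = 9.52e-05) and against 3 h (adjusted p = 0.00155), the latter the only call among the 22 genes, against 14.9% of all probe sets (6.77% in the higher direction). The mutant was called at 3 h (0.39, adjusted p = 0.0362) and not at 6 h (0.33, adjusted p = 0.0744). Dropping control array 1 (0.35), control array 2 (0.40) or 3 h array 2 (0.23) ended the 3 h call.

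CYP71B35 (AT3G26310), also near background, was called lower once, in the mutant at 1 h (-0.25, adjusted p = 0.0376). Dropping control array 1 (-0.19), control array 2 (-0.23) or any of 1 h arrays 1, 2 and 3 (-0.26, -0.23 and -0.26) ended it. The other 9 genes near background were CYP71B5, CYP71B16, CYP71B22, CYP71B24, CYP71B25, CYP71B31, CYP71B36, CYP71B38 and CYP79A2. They include CYP71B31, which oxidises linalool in flowers, and CYP79A2, which makes phenylacetaldoxime for benzylglucosinolate. None was called in any of 15 comparisons, and their salt differences ran from -0.28 to 0.11. Without 1 array each, CYP71B5 (mutant 1 h without control array 2, -0.31), CYP71B16 (mutant 3 h without control array 3, -0.38) and CYP71B24 (wild type 3 h without 3 h array 3, -0.27) passed.

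The genotypes were then compared within each condition. At 3 h of salt the mutant had lower levels of CYP71B37, CYP71B23 and CYP71B28 than wild type and a higher value of CYP71B21, 4 of the 22 genes, against 10.2% of all probe sets (4.32% higher and 5.92% lower). CYP71B37 differed by -1.20 (2.29-fold, SE 0.186, adjusted p = 0.000914), and this held without any single array. The arrays given above show the mutant at 6.02 or lower and wild type at 6.77 or higher.

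CYP71B23 differed by -0.89 (1.85-fold, adjusted p = 0.016) and CYP71B28 by -0.49 (adjusted p = 0.0202). In both genes the 3 mutant arrays lay below the 3 wild-type arrays. Such non-overlap held for 5 of the 22 genes at 3 h, against 36.1% of all probe sets. The call of CYP71B23 ended without wild-type array 1 (-0.73) or mutant array 3 (-0.74), and that of CYP71B28 without wild-type array 1 (-0.37) or 3 (-0.51) or mutant array 1 (-0.46). CYP71B21 differed by 0.54 (adjusted p = 0.0263) with both means near background. That call ended without wild-type array 1 (0.52), 2 (0.52) or 3 (0.59) or mutant array 2 (0.38).

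Among the other genes that fell under salt, CYP71B26 differed at 3 h by -0.44 (adjusted p = 0.235 in limma). It was not called, though its mutant arrays all lay below its wild-type arrays. For CYP71B29 the 95% confidence interval was -0.31 to 0.33. In the control, at 1 h and at 6 h none of the 22 genes was called in limma, where 0.211%, 0.022% and 0.589% of all probe sets were called. At an unadjusted p under 0.05 there were 1, 0 and 0.

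**Figure D4:**
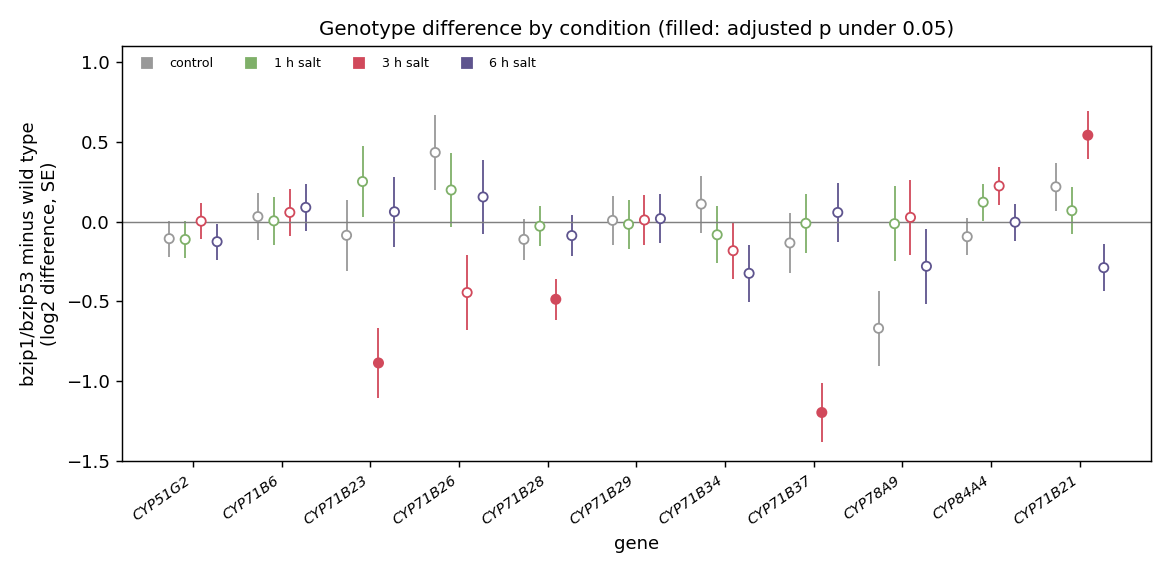
Log2 difference of bzip1/bzip53 minus wild type for the 10 P450 genes with a mean level of at least 5 and for CYP71B21, in the control and at 1, 3 and 6 h of salt; bars are the SE of the limma fit and filled points have an adjusted p under 0.05. Only 3 h points are filled, from -1.20 for CYP71B37 to 0.54 for CYP71B21.

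To ask whether the salt response depended on genotype, the wild-type response was subtracted from that of the mutant. At 3 h this difference was called for 1 of the 22 genes, CYP71B37 (-1.06, SE 0.264, adjusted p = 0.0472), against 1.46% of all probe sets. Leaving out any 1 of 11 of the 12 arrays ended that call, with values from -1.17 to -0.84. Only without mutant 3 h array 2 did it hold. The difference at 3 h was -0.80 for CYP71B23 (adjusted p = 0.207), -0.88 for CYP71B26 (adjusted p = 0.19) and -0.38 for CYP71B28 (adjusted p = 0.315), none of which passed. At 1 h and 6 h no P450 gene was called, against 0% and 0.0791% of all probe sets in limma, with 0 and 1 at an unadjusted p under 0.05.

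Other readings moved with salt and with the mutant at 3 h. The summed intensity of the 5 root markers, on a linear scale, was 8086 to 9026 in the wild-type control, 5294 to 5878 at 1 h, 6145 to 7589 at 3 h and 6899 to 8781 at 6 h. In the mutant it was 9086 to 9610, 5733 to 5952, 5089 to 5368 and 7386 to 9643. The lowest root marker sums were thus those of the mutant at 3 h and of both genotypes at 1 h. PYK10, with group means of 11.99 to 12.89 (log2), had the highest level of the 5 in every group and weighs most in these sums. The sums hide different courses of the single markers.

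EXPA7 and EXPA18, expansins of root hairs, and AT5G17820 were lower in all 6 salt comparisons. Their log2 differences at 6 h were -1.89, -2.04 and -2.68 in wild type and -1.95, -2.02 and -2.81 in the mutant. The mutant 1 h call of EXPA7 (-0.90) ended on dropping control array 2 (-0.74), 1 h array 2 (-0.76) or 1 h array 3 (-0.81). AGL42 was called lower in wild type at 1 h (-0.33) and 6 h (-0.33) and in none of the other salt comparisons, although the mutant 6 h difference passed without 6 h array 2 (-0.25).

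PYK10, a beta-glucosidase of root ER bodies, was lower at 1 h (-0.34 in wild type and -0.45 in the mutant) and, in the mutant, at 3 h (-0.51), and higher at 6 h (0.34 and 0.38). Its wild-type 1 h call ended on dropping control array 1 (-0.26), control array 3 (-0.35), 1 h array 1 (-0.34) or 1 h array 2 (-0.30). At 6 h the wild-type call ended on dropping control array 2 (0.26) or 6 h array 3 (0.21), and the mutant call on dropping 6 h array 3 (0.29).

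The 6 leaf markers summed to 412.3 to 454.2 in the wild-type control, 318.7 to 357.4 at 1 h, 321.3 to 433.9 at 3 h and 313 to 391.4 at 6 h. In the mutant they summed to 308.2 to 384.2, 321.5 to 423.5, 283.3 to 301.3 and 345.6 to 399.4. Of these 6, LHCB4.1, the highest in level, was called lower in wild type at each time and in the mutant at 3 h. Of all probe sets 15.4%, 23.5% and 31.1%, and 28.1%, were. PRK, near background, was called higher in wild type at 3 h, and PRK and RCA in the mutant at 6 h, against 12.4% and 18.1%. The mutant LHCB4.1 call ended without control array 3 or 3 h array 2. The wild-type PRK call ended without any 1 of 5 of the 6 arrays. The mutant PRK call ended without control array 3 or 6 h array 2, and the RCA call without any control array or 6 h array 3. Against wild type at 3 h, the root marker PYK10 (-0.44) and the leaf marker RCA (-0.86) were called lower in the mutant. The PYK10 call ended on dropping wild-type array 1 (-0.37), wild-type array 2 (-0.45), mutant array 1 (-0.42) or mutant array 2 (-0.44), and the RCA call on dropping wild-type array 2 (-0.51) or mutant array 1 (-0.81). The 25S rRNA control probe set read 11.93 to 12.71 on control arrays and 13.03 to 13.47 on salt arrays (log2). The part of these readings in the P450 results was not tested.

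Partner genes of P450 pathways were read from a list of 132 genes, of which 7 had a probe set named for them alone in the gene table. In wild type 2, 2 and 3 of the 7 were higher at 1, 3 and 6 h, and in the mutant 3, 3 and 4, with none lower. The share of all probe sets called higher was 9.33%, 12.4% and 16.4% in wild type and 10.6%, 17.4% and 18.1% in the mutant. CCR2, a cinnamoyl-CoA reductase of the phenylpropanoid pathway, rose 8.53-fold at 1 h and 10.3-fold at 3 h in wild type, by 3.71 (log2) at 6 h, and 29.5-fold at 3 h in the mutant. At 3 h the mutant was higher than wild type by 1.24 (log2, adjusted p = 0.0492), a call that ended without any 1 of the 6 arrays (1.04 to 1.35).

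OPCL1, a CoA ligase of jasmonate synthesis, rose in all 6 salt comparisons, by 2.00 at 1 h and 2.15 at 6 h in wild type and by 1.67, 2.76 and 2.21 in the mutant (log2). Its 1 h calls ended without wild-type control array 1 (1.60) or 2 (1.73) or 1 h array 3 (1.51), and without mutant control array 2 (1.67) or 3 (1.34) or 1 h array 1 (1.58) or 3 (1.16). CCOAMT, a caffeoyl-CoA methyltransferase, rose by 1.11, 0.98 and 1.24 in the mutant and by 0.72 in wild type at 6 h. Dropping control array 1 (0.59), control array 2 (0.71) or 6 h array 3 (0.37) ended the wild-type call, and dropping 3 h array 1 (0.84) ended the mutant 3 h call.

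Of the other 4 partner genes, FACT, a caffeoyl transferase of root waxes, was called in the mutant at 6 h (0.40, adjusted p = 0.0317), but not once control array 1 (0.38) or 2 (0.32), or 6 h array 1 (0.38) or 3 (0.28), was dropped. HCT, which makes shikimate and quinate esters in the phenylpropanoid pathway, was not called in any salt comparison, with differences from -0.17 to 0.17. Without wild-type 3 h array 2, however, it passed at 3 h against control (0.32), against 6 h (-0.30 for 6 h minus 3 h) and between genotypes (-0.45). It passed in wild type for 3 h against 1 h (0.35, adjusted p = 0.0332), and dropping any array but 3 h array 2 ended that call (0.23 to 0.38). UGT74B1, a glucosyltransferase of glucosinolate synthesis, and BRL1, a brassinosteroid receptor, had no call.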

How the data were processed

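The 24 arrays cover 8 groups of 3, assigned from GEO's labels. The deposited values are log2 signals, read from their range of 2.46 to 14.04. RMA, affy and limma are named, without versions, with the build TAIR9, per the submitters' processing notes. RMA corrects background, gives all arrays one distribution and summarises probes, so a change shared by all genes is not seen. Array medians were 6.53 to 6.67, and arrays of a group correlated at 0.985 to 0.997.

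Of 22810 probe sets, 64 controls were left out and 22746 tested. The platform's gene table gave 1 symbol to 13513, several to 503 and none to 8730. Entrez identifiers matched 13436 of the 13513 to RefSeq TAIR10.1, used for names and gene order only. The other 77 kept their older symbol.

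limma 3.58.1 in R 4.3.3 fitted the 8 group means in 1 model with moderated two-sided tests (16 residual and 3.83 prior degrees of freedom). P-values were adjusted by Benjamini-Hochberg over the 22746 probe sets of each of 15 comparisons and called under 0.05. The salt comparisons of a genotype share its control arrays, and the genotype and response comparisons share arrays with them. No level was compared between probe sets. Signal over background and the number of arrays limit the precision.

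The members and lists were chosen with earlier results of these data known. Genes named in full were members called in wild type under salt, without overlap and without dependence on 1 array, members called between genotypes, members with a listed role, the highest and lowest CYP71B gene at 6 h, and up to 4 partner genes per list. The other calls were also given so that every member is accounted for. Of 112 P450 genes in lists of known roles 6 were analysed. The others were not found in the gene table as the only symbol of a probe set. The planned search for promoter motifs was not run, since promoter sequences were not used here.

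Alternatives were array weights, quantile normalization, limma's trend and robust options, a replicate block, stricter thresholds, a level filter, fits of only the groups compared, and leaving out each array. Simulated data (22746 probe sets, wild type at 6 h against control) had independent noise and log2 changes of 0.5, 1 and 2 in 67, 67 and 66 probe sets. The model recovered 55.2%, 98.5% and 98.5% of these changes, and 7.18% of its calls were false. In the real comparison 47.5% of probe sets were called, so the simulated shares do not carry over to it.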

Additional observations from a re-analysis of the deposited data

Results flagged for a closer look

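The salt response of CYP71B37 at 3 h differed between the genotypes, by -1.06 (log2, mutant minus wild type) with an adjusted p of 0.0472 in limma's test of the difference itself. Wild type fell by 0.83 and the mutant fell by 1.89, on 3 arrays a group. The call is not stable: it ended on leaving out any 1 of 11 of the 12 arrays (-1.17 to -0.84, adjusted p up to 0.142) and held only without mutant 3 h array 2.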

How the results depend on the processing

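No single-gene difference that was called turned its direction under any alternative run. Asking for a fold of at least 2 left 4, 3 and 3 P450 genes in wild type at 1, 3 and 6 h, 4 and 4 in the mutant at 1 and 6 h, 1 between genotypes at 3 h, and 0 in wild type for 3 h against 1 h and for 6 h against 3 h. An adjusted p under 0.01 left 5 in the mutant at 1 h, 1 between genotypes at 3 h, and 0 both for wild type 3 h against 1 h and for the difference of responses at 3 h. Fitting only the groups compared left 5 in the mutant at 1 h and 0 for wild type 3 h against 1 h. Array weights gave 2 for that comparison, and a mean level of at least 5 left 0 for 6 h against 3 h, since CYP71B21 is then not tested. Deviations of same-numbered arrays of different groups correlated at a median of -0.0028, and 27 of 84 pairs were over 0.1. For arrays of different numbers the median was -0.0072, and 58 of 168 pairs were over 0.1. The highest correlation was 0.7187 for the same number and 0.5143 for different numbers. Of 24 arrays 10 were closest to their own number. Since the medians and shares were alike, the numbers were not taken as pairs. The replicate block left 0 for the difference of responses at 3 h (CYP71B37, adjusted p = 0.0614). Elsewhere it changed no count by more than 1.5 times. Leaving out 1 array gave counts of 0 to 1 for wild type 3 h against 1 h, 1 to 3 between genotypes at 3 h and 0 to 1 for the difference of responses at 3 h. For other changes the cause was not tested. Taking the lowest probe set of a gene, or adding synonyms, changed nothing by construction, since each gene has 1 probe set and no synonym adds a gene. Values under 5 limit 12 of the 22 genes to calls without an exact size.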
